A study of Mus musculus with 6 samples.

Results

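Ferroptosis is a form of cell death in which iron drives the peroxidation of polyunsaturated phospholipids, and several enzyme systems hold it in check. 9 genes of this process were followed in liver RNA-seq, chosen by symbol: the peroxidase gene Gpx4; the cystine importer genes Slc7a11 and Slc3a2; Acsl4, Lpcat3 and Alox15, whose products make or oxidise polyunsaturated lipids; and Aifm2, Gch1 and Dhodh, which supply radical-trapping antioxidants. All 9 were found among the 45777 genes listed. The livers came from male C57BL/6 mice fed a high-fat diet (HFD), 3 littermate controls (LT, Fpn flox/flox) and 3 Fpn-LKO mice (Alb-Cre; Fpn flox/flox), in which Cre under the albumin promoter removes the iron exporter ferroportin (FPN) from hepatocytes. Both groups carry the floxed allele of 129S origin, which the study's methods describe as backcrossed to C57BL/6J, and LT mice lack the Cre transgene. The methods start the diet in young adult mice, and the age at collection and length of feeding of these 6 mice are not given in the sources used here.

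In ferroptosis, iron-dependent chemistry and lipoxygenases turn the polyunsaturated tails of membrane phospholipids into peroxides. GPX4 reduces these peroxides at the cost of glutathione, which needs cystine brought in by the SLC7A11 and SLC3A2 pair. FSP1, the product of Aifm2, and DHODH reduce ubiquinone at the plasma membrane and in mitochondria, and GTP cyclohydrolase 1, the product of Gch1, begins the synthesis of tetrahydrobiopterin. The comparison asks whether transcripts of these defences, or of the enzymes that supply peroxidisable lipids, differ in livers labelled as lacking hepatocyte ferroportin.

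Stretches of Gpx4, Slc7a11 and Slc3a2 are printed below. GPX4 is a selenoprotein, and its transcript holds a UGA codon that is read as selenocysteine, the catalytic residue, in place of a stop. The stretch below is taken from the GENCODE M21 transcript Gpx4-201 (GRCm38, plus strand), with 12 codons on each side of that codon, which is printed in capitals and lies in a coding exon at chr10:80054737-80054739.
Gpx4: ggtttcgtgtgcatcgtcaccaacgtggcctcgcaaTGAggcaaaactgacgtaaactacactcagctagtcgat

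RefSeq promoter windows (GRCm38.p6, 250 bases before to 50 after the start site) were found for 7 of the 9 genes, in 10 windows, and none for Alox15 or Dhodh. They were searched on both strands for TGACNNNGC (antioxidant response element core, the letters that NRF2 reads), TGATGNAA (C/EBP-ATF composite element, the letters that ATF4 reads) and GGGCGG (GC box). The windows of Slc7a11 and Slc3a2 are shown because the products of these genes form 1 transporter, while their transcript levels lay far apart. Capitals mark the composite elements in Slc7a11 and the GC boxes in Slc3a2.
Slc7a11, chr3:50443564-50443863, minus strand: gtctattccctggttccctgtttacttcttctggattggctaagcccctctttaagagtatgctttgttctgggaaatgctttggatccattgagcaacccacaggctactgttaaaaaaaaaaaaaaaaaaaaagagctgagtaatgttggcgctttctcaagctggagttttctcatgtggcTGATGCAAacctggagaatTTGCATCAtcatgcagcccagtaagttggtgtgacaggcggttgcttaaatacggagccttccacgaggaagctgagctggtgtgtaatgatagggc
Slc3a2, chr19:8713848-8714147, minus strand: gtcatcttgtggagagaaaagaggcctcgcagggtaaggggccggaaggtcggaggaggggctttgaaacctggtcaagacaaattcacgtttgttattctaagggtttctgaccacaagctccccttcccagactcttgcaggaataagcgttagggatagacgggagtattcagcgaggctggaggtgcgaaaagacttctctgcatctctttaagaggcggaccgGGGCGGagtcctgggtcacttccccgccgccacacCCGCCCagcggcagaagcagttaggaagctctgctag

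In the Slc7a11 window, the composite element occurred at 2 places, from -66 to -59 on the gene's strand and from -47 to -40 on the other strand, counted from the start site. It was found in none of the other 6 genes searched, and 3.97% of all 32851 windows of 300 bases hold it. The antioxidant response element core was found in none of the 10 windows and in 12.4% of all. GC boxes were found in 7 of the 10 windows, those of 5 of the 7 genes searched (Gpx4, Slc3a2, Acsl4, Lpcat3 and Gch1), and in 35.7% of all windows. A match describes letters only, a link from letters to transcript level was not tested, and other start sites of these genes were not searched.

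Each liver gave 1 library, with 43086184 to 47778683 reads counted on genes, which were scaled by the TMM method to CPM, the reads of a gene as a share of the library. The sample titles and library names name no batch. P-values set the difference between the groups against the spread between mice, and 3 against 3 libraries cannot give an exact permutation p under 0.1. Slc40a1, the deleted gene, had means of 153 ± 27.0 CPM in the LT livers against 154 ± 18.7 CPM in the livers labelled Fpn-LKO (SD, n = 3 livers each), so its transcript count was not lower and every direction below rests on the labels. The study reports loss of FPN from hepatocytes of Fpn-LKO mice. Which cells or exons these Slc40a1 reads came from was not tested. All 7 hepatocyte markers, albumin among them, were detected, with a summed level of 55631 to 69123 CPM in the LT livers against 58239 to 67001 CPM in the livers labelled Fpn-LKO. The summed levels of the Kupffer cell and macrophage markers also overlapped (287 to 386 and 239 to 510 CPM). Of the 5 acinar markers, only Cela2a had reads, and its groups did not overlap (25 to 62 reads in LT and 0 to 16 in the livers labelled Fpn-LKO). Of the 6 stellate cell markers, Col1a1 and Pdgfrb lay wholly higher in the livers labelled Fpn-LKO (0.857 to 1.89 against 0.277 to 0.846 CPM, and 6.23 to 9.37 against 5.08 to 5.66 CPM), while the summed levels of the list overlapped (384 to 407 against 356 to 426 CPM). Col1a1 had only 12 to 90 reads per library. Among all genes tested, 5.25% lay wholly higher and 5.34% wholly lower. The part of any of these cell types in the results below was not tested. In whole liver, fewer cells of a type and less RNA per cell cannot be told apart.

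Of the 9 genes, 8 passed the filter of at most 1 library without a read, and Slc7a11 did not. In edgeR's quasi-likelihood test, none of the 8 had a Benjamini-Hochberg adjusted p under 0.05 (range 0.982 to 0.995), and among the 17274 genes tested 0.0232% did. None had an unadjusted p under 0.05 by this test, by DESeq2 or by edgeR's exactTest, a mark reached by 4.8%, 5.22% and 4.6% of all genes. Estimates were higher in the livers labelled Fpn-LKO for 4 genes (Gpx4, Aifm2, Acsl4 and Slc3a2) and lower for 4 (Dhodh, Alox15, Gch1 and Lpcat3), where 49.4% of all genes had a higher one. The median log2 fold change of the 8 genes was -0.035, beside -0.0040 for all genes tested. On CPM, Dhodh alone had groups that did not overlap, while 5.34% of all genes lay wholly lower in this way and 10.6% did not overlap in either direction. On the deposited TPM scale, Gpx4 lay wholly higher and Dhodh wholly lower, where 7.28% and 1.61% of the genes averaging 1 TPM or more did so.

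**Figure D1:**
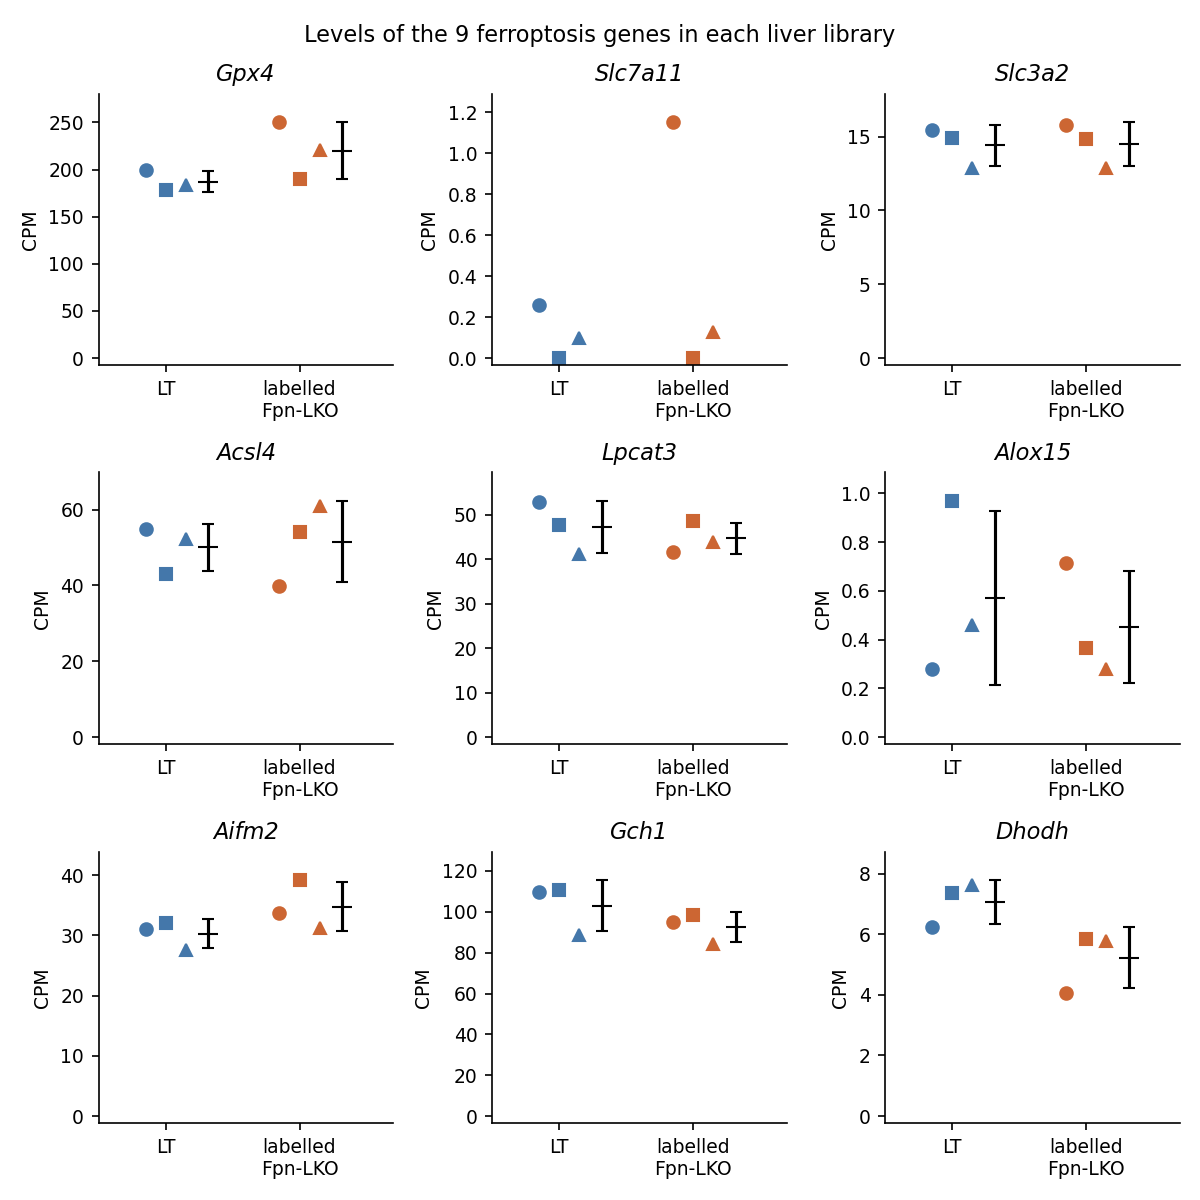
Levels of the 9 ferroptosis genes in CPM (linear axes) in the 3 LT livers (blue) and the 3 livers labelled Fpn-LKO (orange); circles, squares and triangles are replicates 1, 2 and 3, and the black bars give the mean and SD, left out for Slc7a11. Dhodh is the gene whose groups do not overlap, and Slc7a11 is above 1 CPM in 1 library only.

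Gpx4 (NCBI gene 625249, chr10:80047166-80056439, plus strand) was the most abundant of the 9 genes by both CPM and TPM. Its level was 199, 178 and 184 CPM in the LT livers (replicates 1, 2 and 3, the order used throughout), and 251, 190 and 220 CPM in the livers labelled Fpn-LKO. The lowest library labelled Fpn-LKO lay below the highest LT library, so the groups overlapped. The means were 187 ± 11.1 and 220 ± 30.5 CPM (SD, n = 3 livers each), and the log2 fold change came to 0.23 (standard error 0.14, 95% interval -0.081 to 0.55, edgeR adjusted p = 0.982). On the deposited TPM scale the LT livers had 350, 277 and 263 TPM and the livers labelled Fpn-LKO 387, 355 and 361 TPM, and the groups did not overlap. On that scale, of the genes averaging 1 TPM or more, 7.28% lay wholly higher and 1.61% wholly lower, against 5.25% and 5.34% of the genes tested on CPM. Among fits on log2(TPM + 1), the one without a filter on low values gave an unadjusted p of 0.0449 for Gpx4 in limma (adjusted p = 0.952, and from 0.839 to 1.00 over the 16 alternatives).

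Gpx4 has a near-identical copy, Gpx4-ps2, with 99.7% identity over 733 bases, and short reads could be placed on either. Gpx4-ps2 was listed with 38.2, 30.5 and 30.8 CPM in the LT livers against 43.5, 36.6 and 39.0 CPM in the livers labelled Fpn-LKO. It held 14.3% to 16.2% of the reads of the pair in every library, so the split hardly varied. With the reads of both added, a choice made after the values were seen, the means were 220 ± 15.4 and 260 ± 34.0 CPM (SD, n = 3 livers each) and the log2 fold change was 0.24 (standard error 0.14, edgeR adjusted p = 0.982).

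Cystine enters cells through a heterodimer of SLC7A11, the transporting light chain, and SLC3A2, the heavy chain that also serves other amino acid transporters. Slc7a11 (NCBI gene 26570, chr3:50364936-50499087, minus strand) was close to the limit of detection, where the LT livers gave 13, 0 and 4 reads and the livers labelled Fpn-LKO gave 55, 0 and 6 reads. A count of 0 allows up to 3 reads, or 0.0693 CPM in LT replicate 2 and 0.0643 CPM in Fpn-LKO replicate 2. A single library, Fpn-LKO replicate 1 with 1.15 CPM, held 90.2% of the reads of its group. Without it the rest of that group had 6 reads in all, in fewer libraries than the 17 reads of LT. LT replicate 1 held 13 of those 17 reads. No difference was detectable at this depth (p = 0.7, exact permutation test, two-sided), and when all genes with at least 1 read were fitted the edgeR adjusted p was 0.876.

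The reads of Slc7a11 carry a further limit. The longest GENCODE transcript of the gene contains a stretch of up to 585 bases that is 92.5% identical to Tuba1b, an alpha-tubulin gene with 682 to 1047 reads per library, and whether such reads entered the count was not tested. Slc3a2 (NCBI gene 17254, chr19:8706882-8723369, minus strand) was far higher, with 15.4, 14.9 and 12.9 CPM in the LT livers against 15.8, 14.8 and 12.8 CPM in the livers labelled Fpn-LKO. Each LT library thus had a counterpart at nearly the same level, and the log2 fold change was 0.0089 (standard error 0.14, 95% interval -0.31 to 0.33, edgeR adjusted p = 0.995). Slc3a2 also has stretches of sequence similar to those of 1465 other genes. Tmem50a, for example, is 90.9% identical over 186 bases and had 2490 to 5907 reads per library. Whether reads of such genes entered the Slc3a2 count was not tested. Chac1, an ATF4 target that degrades glutathione, had 2.74 ± 0.859 CPM in the LT livers against 2.97 ± 0.742 CPM in the livers labelled Fpn-LKO (SD, n = 3 livers each).

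Acsl4 and Lpcat3 act in sequence: ACSL4 activates arachidonic and adrenic acid as CoA esters, and LPCAT3 inserts them into lysophospholipids. Acsl4 (NCBI gene 50790, chrX:142317993-142390802, minus strand) had 54.8, 43.0 and 52.4 CPM in the LT livers against 39.8, 54.0 and 60.9 CPM in the livers labelled Fpn-LKO. The livers labelled Fpn-LKO held both the lowest and the highest of the 6 values. The log2 fold change was 0.043 (standard error 0.18, 95% interval -0.37 to 0.46, edgeR adjusted p = 0.995), and it changed sign when LT replicate 2 or Fpn-LKO replicate 3 was left out. Lpcat3 (NCBI gene 14792, chr6:124663094-124704716, plus strand) had 52.8, 47.7 and 41.1 CPM in the LT livers against 41.7, 48.5 and 43.8 CPM in the livers labelled Fpn-LKO. All 3 of the latter lay within the LT range, with a log2 fold change of -0.079 (standard error 0.13, 95% interval -0.38 to 0.22, edgeR adjusted p = 0.995). The 3' end of Lpcat3 overlaps Emg1, a gene of the other strand with 1307 to 1937 reads per library, and the sources used here do not state whether the counting used strand.

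Alox15 (NCBI gene 11687, chr11:70344147-70390538, minus strand) encodes the 12/15-lipoxygenase, which oxidises arachidonic and linoleic acid and is known from macrophages and eosinophils. It was nearly silent, where the LT livers gave 14, 42 and 19 reads and the livers labelled Fpn-LKO gave 34, 17 and 13 reads. Gm12312, a pseudogene of the other strand, lies within Alox15 and had 12 to 25 reads per library. Whether such reads entered the Alox15 count was not tested. The most Alox15 reads were in LT replicate 2 (0.970 CPM) and Fpn-LKO replicate 1 (0.713 CPM), so neither group was uniform. The log2 fold change was -0.33 with a wide interval (standard error 0.59, 95% interval -1.70 to 1.05, edgeR adjusted p = 0.995), and without LT replicate 2 it was 0.30. The same libraries had the highest summed level of the 4 eosinophil markers, 1.36 and 1.07 CPM, where the others had 0 to 0.623 CPM. In LT replicate 2 that sum came from Ccr3 alone, with 59 reads. Epx, a defining eosinophil marker, had 0 reads in every library. The summed macrophage markers were highest in Fpn-LKO replicate 3 (510 CPM), the library with the lowest Alox15 level (0.280 CPM). The part of eosinophils or macrophages in the Alox15 count was not tested.

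The antioxidant genes outside the glutathione route gave 3 profiles. Aifm2 (NCBI gene 71361, chr10:61715263-61739260, plus strand), encoding the ubiquinone reductase FSP1, had 31.1, 32.1 and 27.6 CPM in the LT livers against 33.8, 39.2 and 31.2 CPM in the livers labelled Fpn-LKO. The groups overlapped by a small margin, and the log2 fold change was 0.20 (standard error 0.13, 95% interval -0.094 to 0.49, edgeR adjusted p = 0.982). Gch1 (NCBI gene 14528, chr14:47153895-47189413, minus strand), which encodes the first and rate-limiting enzyme of tetrahydrobiopterin synthesis, had 110, 111 and 88.5 CPM in the LT livers against 95.2, 98.3 and 84.4 CPM in the livers labelled Fpn-LKO. LT replicate 3 fell among the latter, and the log2 fold change was -0.15 (standard error 0.13, 95% interval -0.45 to 0.15, edgeR adjusted p = 0.985).

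Dhodh (NCBI gene 56749, chr8:109593244-109608699, minus strand) encodes the mitochondrial enzyme of pyrimidine synthesis that passes electrons to ubiquinone. It had 6.25, 7.34 and 7.61 CPM in the LT livers against 4.07, 5.83 and 5.78 CPM in the livers labelled Fpn-LKO. All 3 livers labelled Fpn-LKO lay below every LT library, by a small gap between the nearest values. On TPM they did too, again by a small gap (2.19 to 3.76 TPM against 3.80 to 3.98 TPM in LT). The limma fit on log2(TPM + 1) gave an unadjusted p of 0.168 for Dhodh. The means were 7.07 ± 0.724 and 5.22 ± 1.00 CPM (SD, n = 3 livers each), and the log2 fold change came to -0.44 (standard error 0.20, 95% interval -0.90 to 0.032). The test was not passed (edgeR unadjusted p = 0.0637, adjusted p = 0.982; exact two-sided permutation test, p = 0.1, the smallest possible). Fpn-LKO replicate 1 was the lowest library, with 194 reads. Umps and Cad, which act in the same pathway after and before it, had log2 fold changes of -0.10 and -0.080 (edgeR adjusted p = 0.995 for both).

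**Figure D2:**
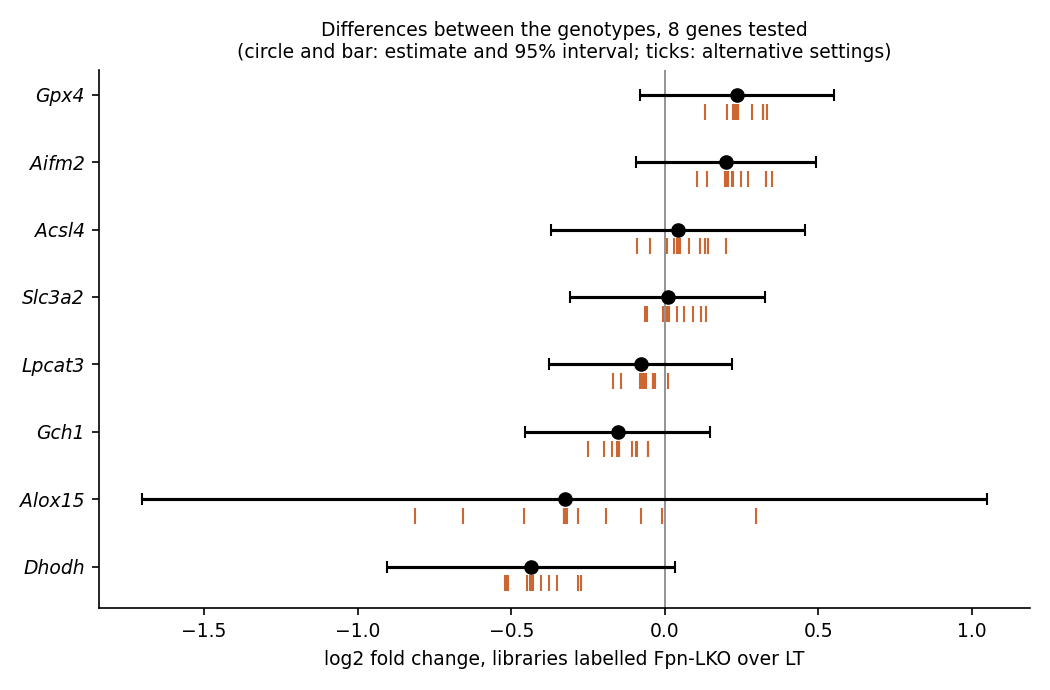
Log2 fold change of the 8 genes tested, livers labelled Fpn-LKO over LT: circles and bars are edgeR's estimate and 95% interval, and orange ticks are the estimates under the alternative settings. Every interval includes 0, and all estimates lie on 1 side of 0 for Gpx4, Aifm2, Gch1 and Dhodh.

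Compared per transcript length, in TPM over all 6 libraries, the order of the 9 genes was Gpx4, Gch1, Lpcat3, Aifm2, Acsl4, Slc3a2, Dhodh, Alox15 and Slc7a11. Gpx4 had a mean level of 332 TPM (263 to 387), above 98.5% of the genes tested, and stood 7.17 times over Gch1 (46.3 TPM, 36.6 to 55.6). Lpcat3 (25.4 TPM, 18.9 to 33.5), Aifm2 (17.6 TPM, 12.4 to 25.0) and Acsl4 (13.3 TPM, 9.86 to 16.2) overlapped in range as neighbours, although their order was the same in 6 of 6 libraries. Slc3a2 had 7.28 TPM (5.31 to 8.77) and Dhodh 3.47 TPM (2.19 to 3.98). A wide gap followed, since Dhodh stood 92.5 times over Alox15, with a mean of 0.0375 TPM. In CPM this gap was smaller, with LT and Fpn-LKO means of 7.07 and 5.22 CPM for Dhodh against 0.570 and 0.452 CPM for Alox15. Alox15 and Slc7a11 (0.0371 TPM) could not be ordered, because Alox15 was the higher of the pair in 4 of 6 libraries.

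**Figure D3:**
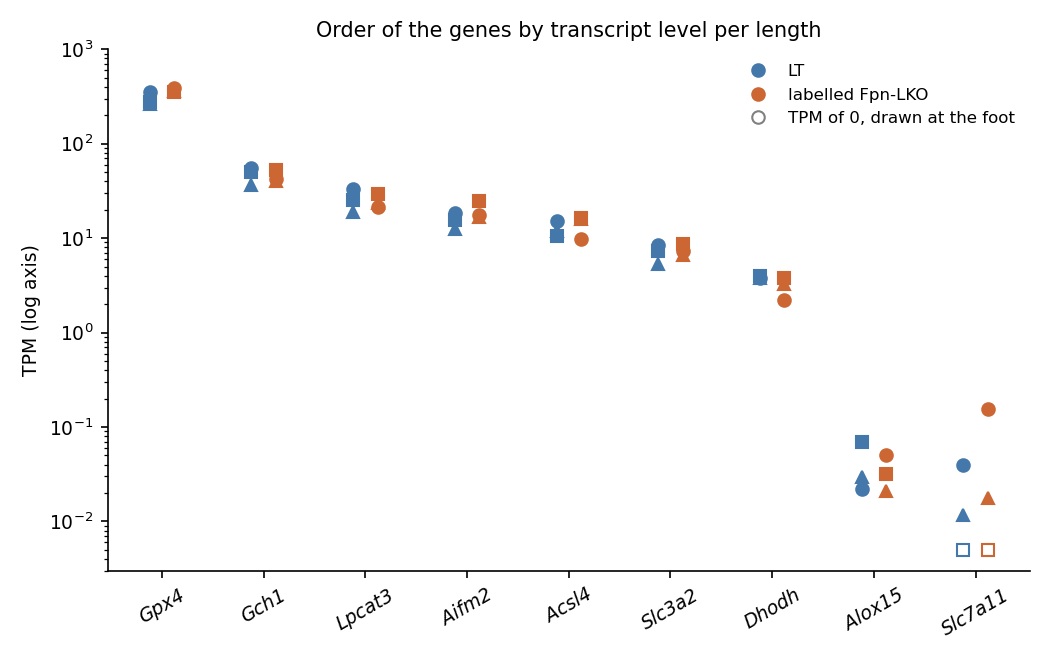
TPM of the 9 genes on a log axis in the 3 LT livers (blue) and the 3 livers labelled Fpn-LKO (orange), ordered by mean; circles, squares and triangles are replicates 1, 2 and 3, and open symbols stand for a TPM of 0. Gpx4 lies between 263 and 387 TPM, and Alox15 and Slc7a11 lie below 1 TPM in every library.

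Among the mice of a group, 7 of the 9 genes varied little. In LT the coefficient of variation of CPM ran from 5.92% for Gpx4 to 12.5% for Lpcat3 in these 7, and in the livers labelled Fpn-LKO from 7.82% for Lpcat3 to 20.9% for Acsl4. The sparse genes varied far more, with 62.7% and 50.7% for Alox15. For each of the 7 genes, the 12576 other genes with a mean of at least 1 CPM were searched for the profile over 6 libraries with the smallest root mean square difference in centred log2 CPM. Nearest to Gpx4 were Rab32 (0.033) and Gemin7 (0.037), and nearest to Aifm2 were Dtx2 and Hexim2 (0.038 each). Dhodh had Arhgap32 (0.053) and Fhod3 (0.058), and Acsl4 had Qsox2 (0.051) and Snrpe (0.054). For Slc3a2 these were Etnk1 and Jmjd1c (0.031 each), for Lpcat3 Etfa (0.032) and Dmac2l (0.043), and for Gch1 Rbms1 (0.032) and Numb (0.038). Within the 7 genes the closest pair was Gch1 and Lpcat3, at 0.095.

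The genes around these 9 were followed in 10 lists by role, 86 genes in all. 76 passed the filter, and none had an adjusted p under 0.05 by edgeR's quasi-likelihood test. At an unadjusted p under 0.05 there were 7, of which 2 were higher and 5 lower in the livers labelled Fpn-LKO, where 2.62% and 2.19% of all genes were. The groups of 9 genes did not overlap on CPM, against 10.6% of all genes. Estimates were positive for 38 and negative for 38, and their median log2 fold change was -0.012. DESeq2 called 3 of them (Pla2g6, Tfrc and Ftl1) and exactTest 2 (Pla2g6 and Tfrc), where they called 0.417% and 0.365% of all genes.

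**Figure D4:**
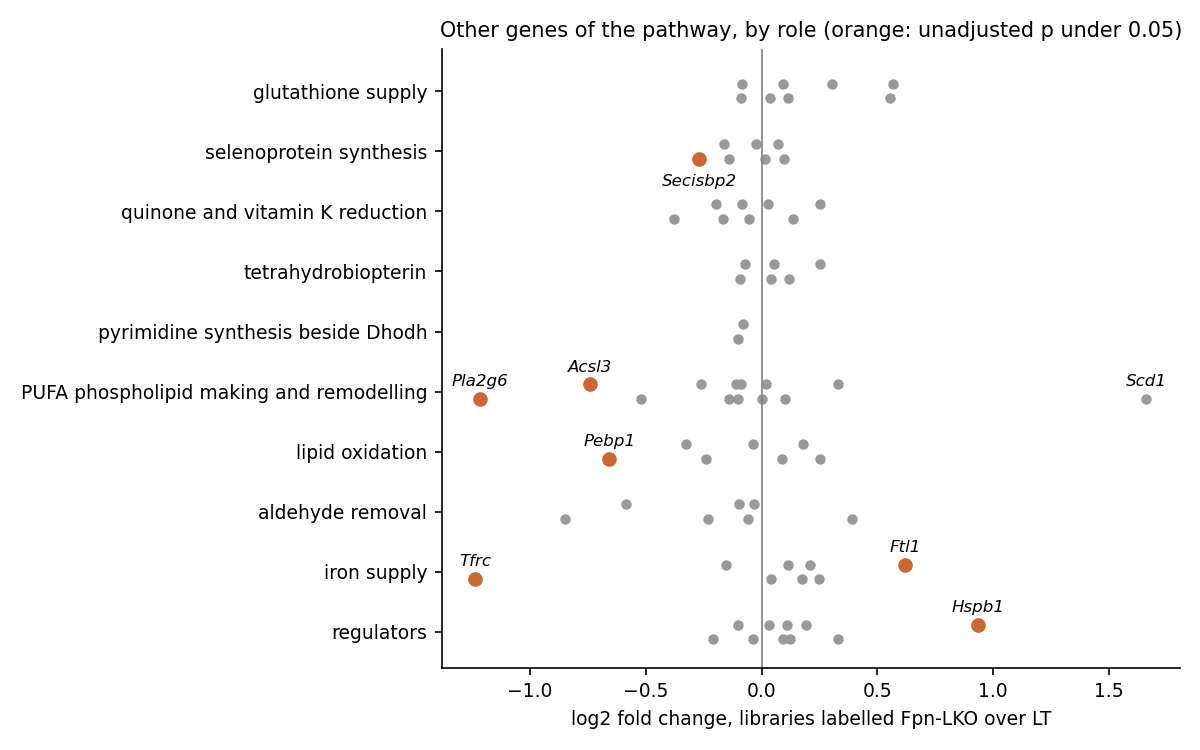
Log2 fold change of the 76 other pathway genes tested, livers labelled Fpn-LKO over LT, by role in 10 lists; each point is a gene, and the 7 with an unadjusted p under 0.05 are orange and named. Scd1 (grey, named) has the highest estimate, 1.66, with a standard error of 1.01 (0.24 without Fpn-LKO replicate 1), and most other points lie near 0.

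Glutathione supply and selenoprotein synthesis serve GPX4. Of 8 glutathione genes tested, none had an unadjusted p under 0.05, 6 had a positive estimate and the median log2 fold change was 0.10. Mgst1, a microsomal peroxidase, had 3136 and 3220 CPM as group means, and Cth, which makes cysteine, had 215 ± 62.3 and 316 ± 138 CPM (SD, n = 3 livers each; log2 fold change 0.55, edgeR adjusted p = 0.982). Without Fpn-LKO replicate 1, which had the highest level of Cth, its log2 fold change was 0.14. Among 7 genes of selenoprotein synthesis, Secisbp2, whose product binds the mRNA element that recodes UGA as selenocysteine, had 24.0, 25.6 and 22.2 CPM in the LT livers against 18.7, 19.5 and 21.4 CPM in the livers labelled Fpn-LKO. On CPM these groups did not overlap, with a log2 fold change of -0.27 (standard error 0.11, edgeR unadjusted p = 0.0468, adjusted p = 0.982). On TPM they did (6.91 to 9.51 TPM in LT against 5.94 to 8.41 TPM in the livers labelled Fpn-LKO). The limma fit on log2(TPM + 1) gave an unadjusted p of 0.469. Sephs2, which makes the selenium donor, and Selenop, the plasma selenium carrier, had log2 fold changes of -0.16 and 0.014.

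Neither quinone reduction nor tetrahydrobiopterin held a gene under an unadjusted p of 0.05, over 8 and 6 genes tested. Coq2 and Coq8a of ubiquinone synthesis had log2 fold changes of -0.053 and 0.14. Pcbd1, which recycles tetrahydrobiopterin, had 112 and 134 CPM as group means (log2 fold change 0.25, edgeR adjusted p = 0.982). Gchfr, the feedback regulator of GTP cyclohydrolase 1, had 44.4 and 46.1 CPM.

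In phospholipid making and remodelling, 2 of 13 genes tested had an unadjusted p under 0.05, both lower, beside 2.19% of all genes that were lower at this mark. Pla2g6 encodes a calcium-independent phospholipase that removes fatty acids, oxidised ones included, from phospholipids. Its level was 80.6, 139 and 88.3 CPM in the LT livers against 30.4, 60.4 and 41.8 CPM in the livers labelled Fpn-LKO, which all lay below LT. The log2 fold change was -1.22 (standard error 0.30), with an adjusted p of 0.747 by edgeR's quasi-likelihood test, 0.0112 by DESeq2 and 0.0418 by exactTest. Acsl3, which activates monounsaturated fatty acids, had 20.7, 17.3 and 12.2 CPM in the LT livers against 9.73, 10.8 and 9.55 CPM in the livers labelled Fpn-LKO. Its groups did not overlap either on CPM (log2 fold change -0.74, standard error 0.20, edgeR adjusted p = 0.863). On TPM they did (3.53 to 7.54 TPM in LT against 3.07 to 4.11 TPM in the livers labelled Fpn-LKO). Acsl3 overlaps Utp14b, a gene of the same strand that shares exon sequence with it and had a log2 fold change of -1.18 (125 to 418 reads per library).

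Of the same list, Acsl1 and Elovl5 had log2 fold changes of -0.088 and -0.14. Scd1, the desaturase that makes monounsaturated fatty acids and here chosen after its values were seen, ran from 46.1 to 1222 CPM over the livers labelled Fpn-LKO and from 64.0 to 283 CPM over LT. The groups overlapped (edgeR adjusted p = 0.982), and without Fpn-LKO replicate 1 the log2 fold change was 0.24.

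Several lipid-oxidising enzymes were below detection in these livers. Of the 14 genes of this list 7 failed the filter, and Alox8, Alox12e, Aloxe3 and Ptgs2 had 0 reads in all 6 libraries, which allows up to 3 reads in each. Ptgs2, which encodes cyclooxygenase 2, is often read as a tissue marker of ferroptosis. Por, the electron donor of cytochromes P450, and Nox4 had log2 fold changes of -0.33 and -0.24 (edgeR adjusted p = 0.982 and 0.983). Pebp1, a binding partner of 15-lipoxygenase, had 272, 186 and 189 CPM in the LT livers against 113, 193 and 104 CPM in the livers labelled Fpn-LKO. Its groups overlapped (log2 fold change -0.66, standard error 0.27, edgeR unadjusted p = 0.0405, adjusted p = 0.982), and a pseudogene copy, Gm10819, is 99.1% identical over 564 bases, so its count is uncertain. Of 7 aldehyde-removing genes none had an unadjusted p under 0.05, 6 had a negative estimate and the median log2 fold change was -0.097. Aldh1a1 had a log2 fold change of 0.39 (edgeR unadjusted p = 0.054, adjusted p = 0.982), and Akr1c6 had -0.060. The groups of Aldh1a1 did not overlap on CPM, where 5.25% of all genes lay wholly higher.

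In iron supply, 4 of the 8 genes tested had groups of CPM that did not overlap, beside 10.6% of all genes. Tfrc, the transferrin receptor, had 35.3, 28.0 and 52.6 CPM in the LT livers against 13.1, 17.2 and 18.9 CPM in the livers labelled Fpn-LKO (log2 fold change -1.24, edgeR unadjusted p = 0.0013, adjusted p = 0.570). Its adjusted p was 0.0017 by DESeq2 and 0.0049 by exactTest. Ftl1, the ferritin light chain, which has pseudogene copies, had a log2 fold change of 0.62 (edgeR unadjusted p = 0.0085, adjusted p = 0.926). Its adjusted p was 0.0096 by DESeq2 and 0.332 by exactTest. Ncoa4, the receptor that delivers ferritin to lysosomes, had 195, 189 and 170 CPM in the LT livers against 216, 204 and 204 CPM in the livers labelled Fpn-LKO. These values did not overlap either (log2 fold change 0.17, edgeR adjusted p = 0.982). On TPM the groups of Ncoa4 overlapped by a small margin (up to 71.34 TPM in LT, from 71.3 TPM in the livers labelled Fpn-LKO). Slc39a14, the last of the 4, was higher by a narrow gap on CPM (up to 222.47 CPM in LT, from 222.54 CPM in the livers labelled Fpn-LKO). Its log2 fold change was 0.21 (edgeR adjusted p = 0.982). On TPM its groups did not overlap either (45.8 to 47.2 TPM in LT against 49.3 to 66.0 TPM). Fth1, the ferritin heavy chain, overlapped between the groups (log2 fold change 0.12).

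Among the 10 regulators, Atf4, a transcription factor of the amino acid response, and Sat1, a polyamine acetyltransferase, had log2 fold changes of -0.21 and 0.33. Hspb1, a small heat shock protein, had 5.85, 8.50 and 6.89 CPM in the LT livers against 20.7, 6.90 and 13.0 CPM in the livers labelled Fpn-LKO. Its groups overlapped because of Fpn-LKO replicate 2 (log2 fold change 0.93, standard error 0.37, edgeR unadjusted p = 0.0375, adjusted p = 0.982). Without Fpn-LKO replicate 1 the log2 fold change was 0.49. A pseudogene copy of Hspb1, Hsp25-ps1, is 99.8% identical over 441 bases and had 40 to 131 reads per library, so the Hspb1 count is uncertain.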

How the data were processed

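The labels' processing notes name bcl2fastq 2.20.0, FastQC 0.11.7, HISAT2 2.1.0, Bowtie2 2.3.4.1, StringTie 2.1.3b and mm10. The authors deposited raw read counts per NCBI gene, FPKM (per transcript length and library size, used here for no result) and TPM (the same total in every library). The labels name a stranded mRNA kit, and the methods a total RNA kit.

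Counts were tested with edgeR 4.0.16 in R 4.3.3 (quasi-likelihood test, TMM), without genes at 0 reads in more than 1 library, which kept 17274 of the 45777 genes (22544 had no read at all). Profiles were compared on log2(CPM + 0.5). The methods name exactTest, tried here as an alternative with DESeq2 1.42.0, limma 3.58.1 on log2(TPM + 1) or log2(TPM + 0.1), RLE factors, all genes with at least 1 read, filterByExpr, a replicate block and leaving out each mouse. P-values were adjusted by Benjamini-Hochberg over all genes tested. Standard errors came from the F statistic, and 95% intervals from these. Tests were tried on simulated data. Copies were searched with BLAST 2.17.0 in GENCODE M21 (at least 90% identity over 100 bases).

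The genes and lists were chosen with earlier results of these data known. Named were the 9 genes, Slc40a1, list genes with an unadjusted p under 0.05 or separate groups and an absolute log2 fold change of at least 0.5, the 2 further genes of each list with the highest TPM, and the 2 nearest profiles. Chac1, Scd1 and Slc39a14 were added after their values were seen. Positions are GRCm38.p6. Intervals for counts of 0 cover counting error only.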

Additional observations from a re-analysis of the deposited data

How the results depend on the processing

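No adjusted p under 0.05 was found for the 9 genes in any alternative that tested them (15 for most, 16 for Gpx4, 13 for Alox15 and 4 for Slc7a11), and the direction was the same throughout for Gpx4, Aifm2, Gch1 and Dhodh. Genes called over the whole table (4, all higher) depended on the test: 72 with DESeq2 (49 higher, 23 lower), 63 with exactTest (44 and 19), 7 with limma on log2(TPM + 0.1) (7 higher), and 1 lower call with limma on log2(TPM + 1) without a filter; leaving out 1 mouse gave 0 to 6 (0 to 4 higher, 0 to 2 lower), with 0 without LT replicate 2. Of the other pathway genes DESeq2 called 3 and exactTest 2, and 4 had an unadjusted p under 0.05 with limma on log2(TPM + 0.1). Of the 9, Gpx4 was the 1 gene with an unadjusted p under 0.05 (0.0449) with limma on log2(TPM + 1) without a filter. The median estimate of those of the 9 genes that were tested, -0.035, was positive with limma on log2(TPM + 1) and log2(TPM + 0.1), without Alox15 and Slc7a11 (0.12 and 0.13, beside 0.083 and 0.097 for all genes), without a filter (0.053), with all genes of at least 1 read (0.0087) and without LT replicate 1 or 2 (0.037 and 0.039). On log2(TPM + 1), with and without a filter, and on log2(TPM + 0.1), estimates turned positive for Coq2 (0.042, 0.042 and 0.044), Cad (0.030, 0.030 and 0.048), Acsl1 (0.0067 in each), Elovl5 (0.014, 0.014 and 0.015) and Akr1c6 (0.038 in each). Leaving out 1 mouse changed the sign of small estimates, whose ranges were -0.090 to 0.20 for Acsl4, -0.81 to 0.30 for Alox15, -0.17 to 0.011 for Lpcat3, -0.065 to 0.090 for Slc3a2, -0.11 to 0.14 for Slc40a1, -0.16 to 0.021 for Akr1c6, -0.42 to 0.038 for Atf4, -0.29 to 0.21 for Cad, -0.094 to 0.40 for Chac1, -0.16 to 0.044 for Coq2, -0.16 to 0.32 for Coq8a, -0.40 to 0.12 for Elovl5, -0.013 to 0.22 for Fth1, -0.016 to 0.10 for Gchfr, -0.0086 to 0.093 for Mgst1 and -0.024 to 0.078 for Selenop. The cause of these changes was not tested.

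The groups share replicate numbers, and library names of livers with the same replicate number carry neighbouring numbers. Which livers are littermates is not given in the sources used here. Deviations of livers with the same replicate number correlated at 0.21, 0.014 and 0.096 over genes, the first being the highest of any pairing. LT replicate 2 correlated best with Fpn-LKO replicate 3. With a replicate block in the edgeR fit, 0 genes were called over the whole table (0 higher), and 10 other pathway genes (Cth among them) and 1 of the 9, Dhodh (log2 fold change -0.45, unadjusted p = 0.0432 in that model across all genes), had an unadjusted p under 0.05.

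Slc7a11 and Alox15 had too few reads to show any but large differences, and for the abundant genes 3 mice a group left 95% intervals such as -0.081 to 0.55 (Gpx4). The Gpx4 count depends on how reads were divided with Gpx4-ps2.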
